A study of Mus musculus with 10 samples.

Results

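A set of 10 genes that mark the medial habenula or the thalamus were followed in hippocampus dissected from a Down syndrome mouse model and its controls. The 4 medial habenula markers were Tac2, Gpr151, Lrrc55 and Pou4f1, and the 6 thalamus markers were Synpo2, Rora, Tcf7l2, Prkcd, Lef1 and Slc17a6. They were chosen as known markers of these regions, with earlier results of these data known. Each was read from its brightest probe set with a single gene symbol, and they are 10 of the 19938 genes tested. The Dp5/Dp1 mice carried the Dp5Yah and Dp1Rhr duplications of mouse chromosome 16 together, and each of 5 males, 16 weeks old, gave its right and left hippocampus to 1 array. The control group held 5 male littermates of the same age with neither duplication, marked as re-analysed in the labels and shared, by the design text, with the single Dp5Yah and Dp1Rhr lines. The labels give a C57BL/6N background for all 10 mice.

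The habenula and the thalamus lie in the diencephalon directly beneath the dorsal hippocampus, so a hippocampal dissection passes close to both. The medial habenula sends cholinergic and tachykinin-containing axons through the fasciculus retroflexus to the interpeduncular nucleus, and its neurons are dense in nicotinic acetylcholine receptors. Thalamic relay neurons use glutamate loaded by VGLUT2, the product of Slc17a6, whereas hippocampal pyramidal cells mainly use VGLUT1.

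Genes inside the duplicated intervals fitted the group labels: 25 of 82 Dp5Yah genes and 12 of 31 Dp1Rhr genes were called higher in Dp5/Dp1 by limma, and the interval means did not overlap between groups (7.28 to 7.34 in Dp5/Dp1 and 7.09 to 7.17 in control for Dp5Yah, and 8.21 to 8.26 against 8.03 to 8.05 for Dp1Rhr, in log2 units). None of the 10 markers lies in either interval. The 12 hippocampus markers checked averaged 9.87 to 9.98 in Dp5/Dp1 arrays and 9.86 to 9.95 in control arrays, and none was among the dimmest 40% of genes. Of lists for other neighbouring tissue, 6 hypothalamus markers averaged 6.20 to 6.29 in Dp5/Dp1 and 6.19 to 6.27 in control, 5 of them among the dimmest 40%, and 5 striatum markers 8.35 to 8.49 in Dp5/Dp1 and 8.41 to 8.56 in control. In whole tissue, fewer cells of a type and less RNA per cell cannot be told apart.

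The stretches upstream of 4 markers, taken from both sets, are shown as examples. They come from the RefSeq promoter table (GRCm38.p6), run 5′ to 3′ of the gene, and hold only bases outside the annotated gene. They are chr10:127724228-127724477 on the plus strand for Tac2, chr2:85198751-85199000 on the minus strand for Lrrc55, chr14:104468119-104468249 on the minus strand for Pou4f1 and chr3:123236169-123236399 on the minus strand for Synpo2. Capitals mark any match, on either strand, to the TATA box TATAAA, the GC box GGGCGG, the E-box CAGCTG, the TCF/LEF sites CTTTGAT and CTTTGAA, the nuclear receptor half-site AGGTCA, the POU4F1 site ATAATTAAT or the homeodomain core TAATTA.
Tac2: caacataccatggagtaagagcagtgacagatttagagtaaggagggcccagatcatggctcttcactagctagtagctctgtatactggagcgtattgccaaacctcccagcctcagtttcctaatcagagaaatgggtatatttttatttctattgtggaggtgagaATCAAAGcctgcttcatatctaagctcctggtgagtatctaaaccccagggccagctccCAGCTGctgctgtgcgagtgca
Lrrc55: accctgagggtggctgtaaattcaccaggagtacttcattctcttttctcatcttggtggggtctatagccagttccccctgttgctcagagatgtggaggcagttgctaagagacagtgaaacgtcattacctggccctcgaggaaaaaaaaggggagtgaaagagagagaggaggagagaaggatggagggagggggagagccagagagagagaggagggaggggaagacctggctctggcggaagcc
Pou4f1: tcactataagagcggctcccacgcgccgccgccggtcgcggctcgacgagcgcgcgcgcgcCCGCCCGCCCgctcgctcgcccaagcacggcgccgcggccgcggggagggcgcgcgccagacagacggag
Synpo2: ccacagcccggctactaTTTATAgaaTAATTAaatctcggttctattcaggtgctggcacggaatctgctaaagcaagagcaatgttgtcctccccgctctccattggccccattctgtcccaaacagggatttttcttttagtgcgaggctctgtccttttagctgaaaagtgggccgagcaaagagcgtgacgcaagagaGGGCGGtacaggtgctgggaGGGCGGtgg
The TCF/LEF site CTTTGAT, which TCF7L2 and LEF1 bind, was found in the 250 bases upstream of Tac2, at -81 to -75 from its start on the minus strand, and in the window of no other marker searched, against 3.21% of all 32851 windows in the table. Its relative CTTTGAA was found in 0 of 9 markers, against 4.46% of all windows. The nuclear receptor half-site AGGTCA, which RORA binds, was likewise found in 0 of 9 markers, against 14.0% of all windows. The E-box CAGCTG stood in the windows of Tac2, at -22 to -17, and Pou4f1, at -118 to -113, against 13.0% of all windows. The Pou4f1 match lies inside the annotated gene and is not printed. The letters of the TATA box stood in the windows of Synpo2, at -233 to -228, and Prkcd, at -244 to -239, against 12.4%. The homeodomain core, whose letters lie within the POU4F1 site, was found for Synpo2, against 4.84% of all windows. The POU4F1 site was in 0 of 9 markers, against 0.259% of all windows. GC boxes were found in 6 of 9 markers, Pou4f1 and Synpo2 among them, against 32.7% of all windows. These counts are for the start listed first for each gene. Over all 15 windows of the 9 markers, other starts added the POU4F1 site and the homeodomain core within it for Slc17a6. They also added the E-box for Lef1 and Prkcd and the TATA box letters for Lef1 (-231 to -226) and Tcf7l2 (-242 to -237). The GC content of the 250 bases was 47.2% for Tac2, 54.0% for Lrrc55, 54.4% for Synpo2 and 78.0% for Pou4f1, with a median of 52.4% over all windows.

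Levels are RMA values, in log2 units of hybridisation signal, and are compared only within a gene. Among the medial habenula markers, Tac2, which encodes the precursor of neurokinin B, read 8.33, 10.08, 8.56, 8.05 and 9.40 in Dp5/Dp1 arrays 1 to 5, against 7.54, 7.98, 9.13, 7.55 and 7.64 in control arrays 1 to 5. Dp5/Dp1 arrays 2 and 5 and control array 3 were the highest, and control array 3 lay above 3 of the 5 Dp5/Dp1 arrays, so the groups overlapped. The mean was 8.88 ± 0.84 in Dp5/Dp1 and 7.97 ± 0.68 in control (SD, n = 5 each), a difference of 0.92 ± 0.40 (SE), or 1.89-fold. This gave an unadjusted p of 0.0411 and an adjusted p of 0.814 in limma over all genes, and p = 0.103 in a two-sided exact permutation test.

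Gpr151, an orphan receptor of habenular axons, read 5.86, 7.55, 6.05, 5.81 and 6.75 in Dp5/Dp1 arrays 1 to 5, against 5.85, 5.85, 6.00, 5.83 and 5.78 in control arrays 1 to 5. Only Dp5/Dp1 arrays 2 and 5 stood clear of the rest, at 3.24-fold and 1.87-fold over the control median. Dp5/Dp1 array 3 lay just above the highest control, at 6.05 against 6.00, and Dp5/Dp1 arrays 1 and 4 lay among the controls. Its mean was 6.40 ± 0.74 in Dp5/Dp1 and 5.86 ± 0.08 in control (SD, n = 5 each), a difference of 0.54 ± 0.28 (SE) with an adjusted p of 0.832 in limma and an exact permutation p of 0.103. The gene was among the dimmest 40% of genes (means under 6.78), where a log2 difference understates a change, and no detection call was used here.

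Lrrc55, an auxiliary gamma subunit of BK potassium channels, read 8.85, 9.80, 8.69, 8.64 and 9.03 in Dp5/Dp1 arrays 1 to 5, against 8.43, 8.75, 8.80, 8.41 and 8.67 in control arrays 1 to 5. Dp5/Dp1 array 2 stood at 2.20-fold over the control median and the next, array 5, at 1.28-fold, while Dp5/Dp1 arrays 3 and 4 lay among the controls. The difference was 0.39 ± 0.19 (SE), or 1.31-fold, with an adjusted p of 0.824 in limma and an exact permutation p of 0.0952.

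Pou4f1 encodes the homeodomain factor BRN3A, which specifies habenular neurons. It read 5.54, 5.94, 5.67, 5.47 and 5.87 in Dp5/Dp1 arrays 1 to 5, against 5.60, 5.45, 5.62, 5.53 and 5.49 in control arrays 1 to 5. Dp5/Dp1 arrays 2 and 5 were again the highest, at 1.33-fold and 1.26-fold over the control median, and the groups overlapped. At 0.16 ± 0.08 (SE) the difference was the smallest of the 4, with an adjusted p of 0.832 in limma and an exact permutation p of 0.159, and this gene too was among the dimmest 40%.

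**Figure D1:**
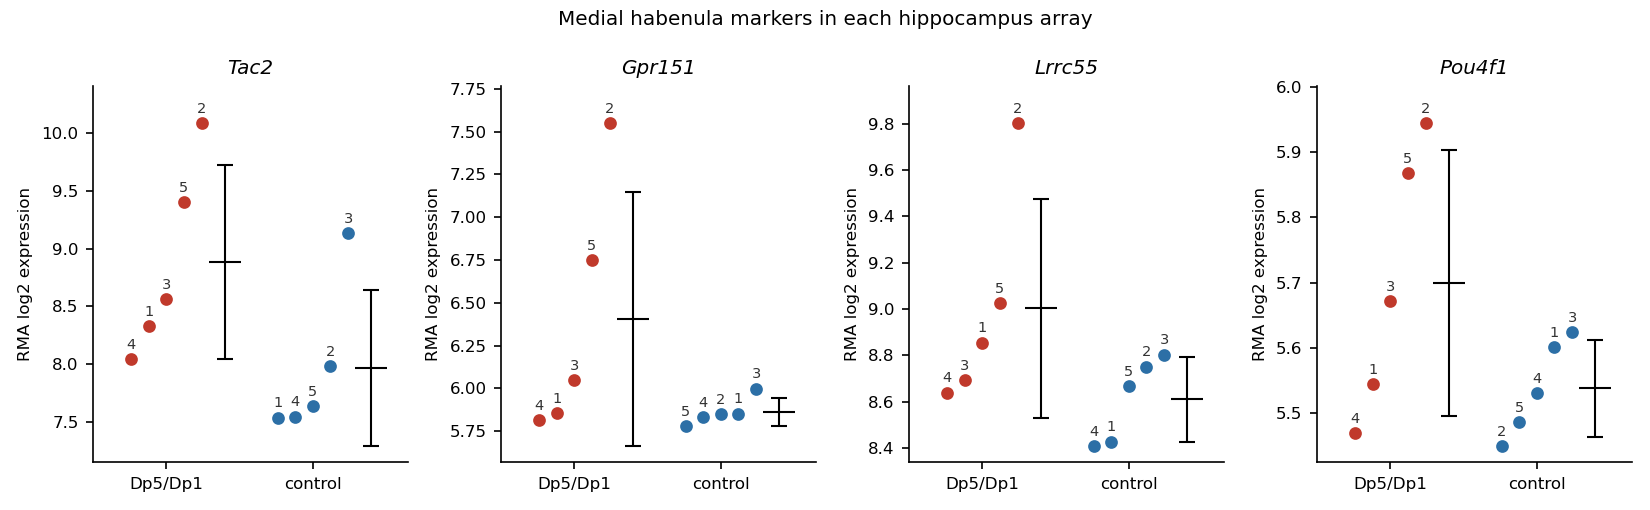
RMA log2 expression (y axis) of the 4 medial habenula markers in the 5 Dp5/Dp1 and 5 control arrays (x axis), with points labelled by replicate number and bars giving mean ± SD. Dp5/Dp1 array 2 is the highest of the 10 arrays for all 4 genes and Dp5/Dp1 array 5 the next.

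Over the 4 medial habenula markers together, the mean level was 8.34 in Dp5/Dp1 array 2 and 7.76 in Dp5/Dp1 array 5, and 6.99 to 7.24 in the other 3 Dp5/Dp1 arrays. In the controls it was 7.39 in array 3 and 6.83 to 7.01 in the other 4. Without Dp5/Dp1 arrays 2 and 5, the Gpr151 difference was 0.0445, that of Lrrc55 0.12, that of Pou4f1 0.0237 and that of Tac2 0.35. These arrays were the highest for all 4 markers, so leaving them out had to lower each difference. With control array 3 left out as well, a choice made after the data were seen, the Tac2 difference was 0.64 with an adjusted p of 0.244 in limma.

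Among the thalamus markers, Synpo2, an actin-binding relative of synaptopodin, read 6.61, 6.80, 6.79, 6.68 and 6.93 in Dp5/Dp1 arrays 1 to 5, against 7.69, 6.87, 6.84, 7.48 and 6.77 in control arrays 1 to 5. Control arrays 1 and 4 stood above all others, at 1.78-fold and 1.53-fold over the control median, and the other 3 controls lay within the range of Dp5/Dp1. The mean was 6.76 ± 0.12 in Dp5/Dp1 and 7.13 ± 0.43 in control (SD, n = 5 each), a difference of -0.37 ± 0.17 (SE) with an unadjusted p of 0.0484, an adjusted p of 0.823 in limma and an exact permutation p of 0.111.

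Prkcd, which encodes protein kinase C delta, a kinase strongly expressed in thalamic relay neurons, read 9.20, 9.15, 9.13, 8.89 and 9.36 in Dp5/Dp1 arrays 1 to 5, against 10.14, 9.01, 9.14, 9.88 and 9.30 in control arrays 1 to 5. The same control arrays, 1 and 4, were the highest, at 1.79-fold and 1.49-fold over the control median. The difference was -0.35 ± 0.19 (SE), with an adjusted p of 0.832 in limma and an exact permutation p of 0.222.

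Rora encodes a retinoic acid receptor-related orphan receptor of thalamic and cerebellar neurons. It read 9.39, 9.48, 9.37, 9.53 and 9.45 in Dp5/Dp1 arrays 1 to 5, against 10.01, 9.56, 9.46, 9.65 and 9.40 in control arrays 1 to 5. Control array 1 was highest and control array 4 next, at 1.37-fold and 1.07-fold over the control median, and control arrays 3 and 5 lay within the range of Dp5/Dp1. The difference of -0.17 ± 0.10 (SE) had an adjusted p of 0.832 in limma and an exact permutation p of 0.111.

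Tcf7l2, a Wnt-pathway transcription factor kept at high levels in adult thalamic and medial habenular neurons, read 9.60, 8.66, 9.50, 7.76 and 9.63 in Dp5/Dp1 arrays 1 to 5, against 9.65, 9.20, 9.63, 8.43 and 9.50 in control arrays 1 to 5. Low arrays rather than high ones set its spread. Dp5/Dp1 array 4 lay at 0.300 of the control median, control array 4 at 0.477 and Dp5/Dp1 array 2 at 0.557, while 6 of the other 7 arrays lay between 9.50 and 9.65. Control array 4 was thus high for Synpo2 and Prkcd and low for Tcf7l2, and Dp5/Dp1 array 2 was highest for all 4 medial habenula markers and low for Tcf7l2. The difference was -0.25 ± 0.36 (SE), with an adjusted p of 0.932 in limma and a 95% interval from -1.03 to 0.52.

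Lef1, a TCF7L2 relative that binds the same DNA sites, read 7.51, 7.45, 7.25, 7.43 and 7.58 in Dp5/Dp1 arrays 1 to 5, against 7.74, 7.58, 7.41, 7.51 and 7.32 in control arrays 1 to 5. Control array 1 was the highest, the groups overlapped, and the difference was -0.07 ± 0.08 (SE, adjusted p of 0.907 in limma). Slc17a6 read 8.80, 9.09, 8.70, 8.66 and 8.60 in Dp5/Dp1 arrays 1 to 5, against 8.91, 8.74, 8.57, 8.81 and 8.77 in control arrays 1 to 5. Its highest array was Dp5/Dp1 array 2, followed by control array 1, and the group difference was 0.0092 ± 0.09 (SE, adjusted p of 0.991 in limma, 95% interval from -0.18 to 0.20).

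**Figure D2:**
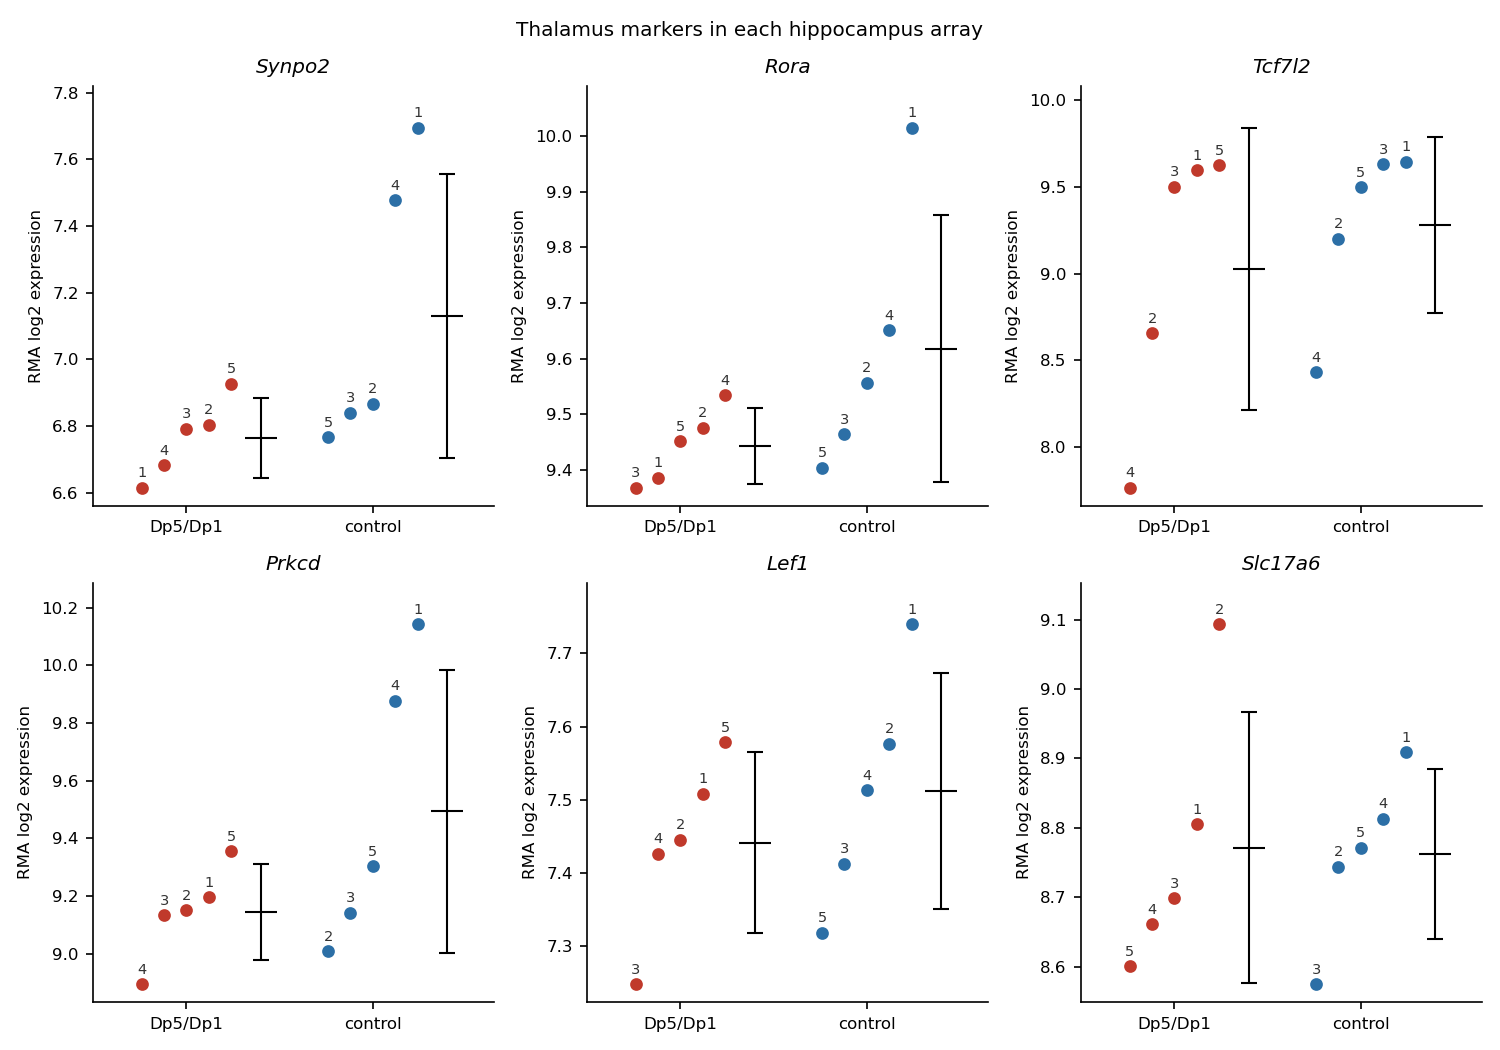
RMA log2 expression (y axis) of the 6 thalamus markers in the 5 Dp5/Dp1 and 5 control arrays (x axis), with points labelled by replicate number and bars giving mean ± SD. Control arrays 1 and 4 are the highest for Synpo2, Prkcd and Rora, whereas Tcf7l2 is lowest in Dp5/Dp1 array 4 and control array 4.

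Without control arrays 1 and 4, a choice made after the data were seen, the Synpo2 difference was -0.0603, that of Prkcd -0.0055 and that of Rora -0.0318. These 2 control arrays also had the highest choroid plexus level: the mean of 12 choroid plexus markers was 6.90, 7.22, 8.24, 6.94 and 8.52 in Dp5/Dp1 arrays 1 to 5, against 8.94, 6.79, 6.95, 8.80 and 8.28 in control arrays 1 to 5. With group means removed, the choroid plexus mean had r of 0.81 with Prkcd, 0.73 with Synpo2 and 0.39 with Rora. Its r was 0.64 with the mean of the 5 thalamus markers without Tcf7l2. Tcf7l2 was left out of that mean after its values were seen. Dp5/Dp1 arrays 3 and 5 and control array 5 were also high in choroid plexus, with Synpo2 at 6.79, 6.93 and 6.77 and Prkcd at 9.13, 9.36 and 9.30. Ttr, the transthyretin gene that choroid plexus expresses most strongly, ran from 9.30 to 13.23 in Dp5/Dp1 and from 9.46 to 13.45 in control. With the choroid plexus mean as a covariate, the Synpo2 difference was -0.27 and that of Prkcd -0.22. The mean of 10 oligodendrocyte lineage genes was 9.74, 9.73, 9.68, 9.63 and 9.73 in Dp5/Dp1 arrays 1 to 5, against 9.78, 9.71, 9.62, 9.80 and 9.72 in control arrays 1 to 5, and so was also highest in control arrays 4 and 1. Of these 10 genes, 3 had r of at least 0.7 with the thalamus mean without Tcf7l2 (Bmp4 at 0.92, Cspg4 at 0.74 and Itpr2 at 0.74). The lowest r was -0.21, for the myelin gene Mog, that of Mbp was 0.17, and the median was 0.57. The parts of choroid plexus and oligodendrocyte lineage cells in the thalamus marker levels were not tested.

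Over all 10 markers, limma called 0 after adjustment, against 0.206% of all genes tested (41 of 19938). Of these 41 genes, 25 lay in the Dp5Yah interval and 12 in the Dp1Rhr interval, which hold none of the markers. At an unadjusted p under 0.05, Tac2 was higher in Dp5/Dp1 and Synpo2 lower, beside 6.06% of all genes, 3.39% higher and 2.67% lower. The rank-based FCROS method passed 4 of 10, with Tac2, Gpr151 and Lrrc55 higher and Synpo2 lower, against 5.06% of all genes, 2.84% higher and 2.21% lower. Its cut-offs are tails of a normal curve fitted to the scores of all genes, so the share of all genes that passes is largely set in advance. In 0 of 10 did the 2 groups separate without overlap, against 1.08% of all genes. All 4 medial habenula markers had a higher mean in Dp5/Dp1 (median difference 0.47) and 5 of 6 thalamus markers a lower one (median -0.21), beside a median of 0.0019 over all genes.

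**Figure D3:**
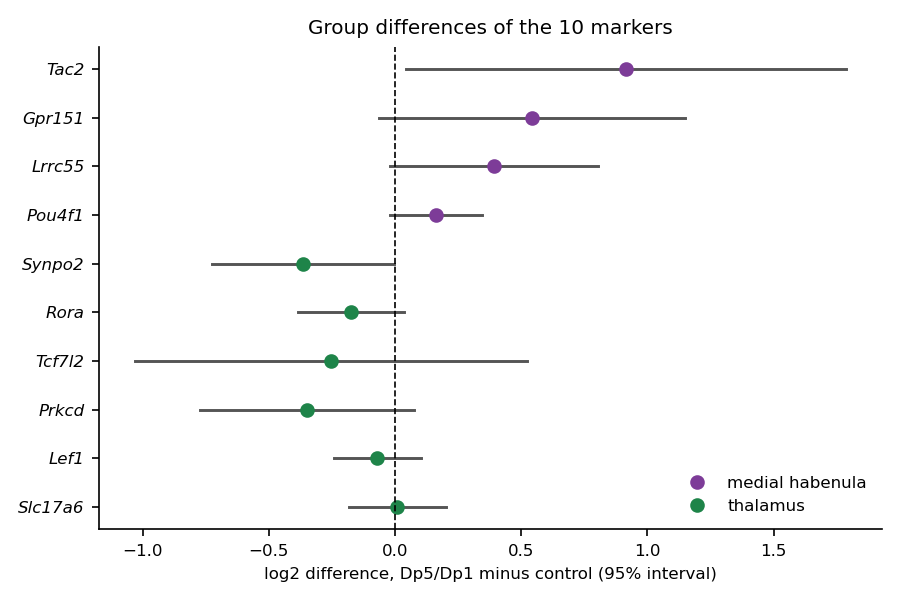
Difference in log2 expression, Dp5/Dp1 minus control (x axis), for the 10 markers (y axis), with lines giving 95% intervals from limma. The interval of Tac2 runs from 0.04 to 1.79, that of Synpo2 from -0.73 to -0.0031, and the other 8 include 0.

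The spread between arrays differed by marker and by group. The SD of Gpr151 was 0.74 in Dp5/Dp1 and 0.08 in control, that of Synpo2 0.12 in Dp5/Dp1 and 0.43 in control, and that of Rora 0.07 in Dp5/Dp1 and 0.24 in control. Over both groups, Tac2 ranged over 2.54 log2 units across the 10 arrays, the sixth widest range of all genes tested, Tcf7l2 over 1.88, Gpr151 over 1.77, Lrrc55 over 1.39, Prkcd over 1.25 and Synpo2 over 1.08. These 6 of 10 markers ranged over at least 1 log2 unit, as did 0.692% of all genes. The markers were chosen with earlier results of these data known, so this share is no test. Rora ranged over 0.65, Slc17a6 over 0.52, Pou4f1 over 0.50 and Lef1 over 0.49.

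With group means removed, each medial habenula marker followed the other 3 over the 10 arrays, with Pearson r of 0.86 for Tac2, 0.90 for Gpr151, 0.89 for Lrrc55 and 0.86 for Pou4f1. Among the thalamus markers Synpo2 and Prkcd were closest (r = 0.92), then Synpo2 and Rora (r = 0.85), while Tcf7l2 had r = -0.03 with the mean of the other 5. Slc17a6 had r of 0.51 with Gpr151 and 0.51 with Lrrc55, beside 0.21 with the mean of the other thalamus markers. The mean of the 4 medial habenula markers and that of the 5 thalamus markers without Tcf7l2 had r = -0.01. Within Dp5/Dp1, arrays 2 and 5 were the highest for both means. Within control, array 3 was the highest for the medial habenula mean and arrays 1 and 4 for the thalamus mean. These values describe 10 arrays of shared tissue preparation and carry no test.

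**Figure D4:**
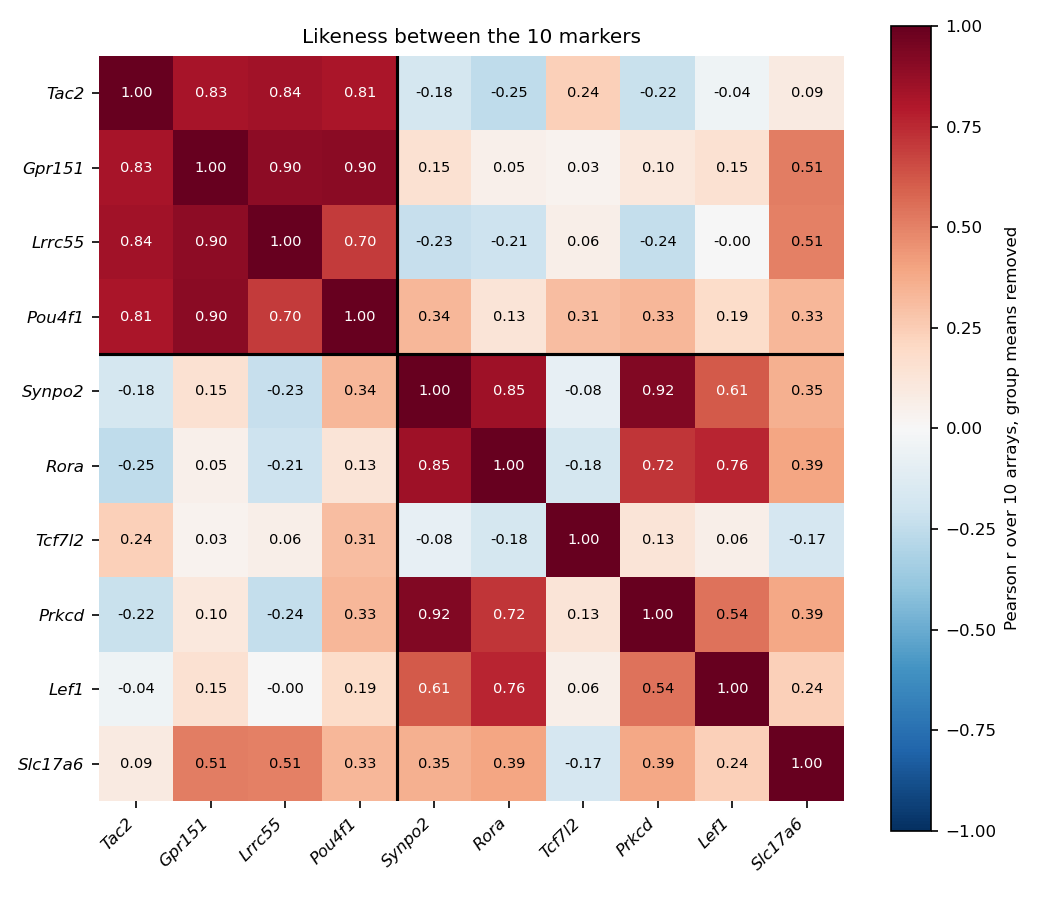
Pearson r between each pair of the 10 markers over 10 arrays with group means removed (colour and numbers), with lines parting medial habenula from thalamus markers. The 4 medial habenula markers form a block of 0.70 and above, Synpo2, Rora and Prkcd another of 0.72 and above, and Tcf7l2 stays between -0.18 and 0.31 with every other marker.

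**Figure D5:**
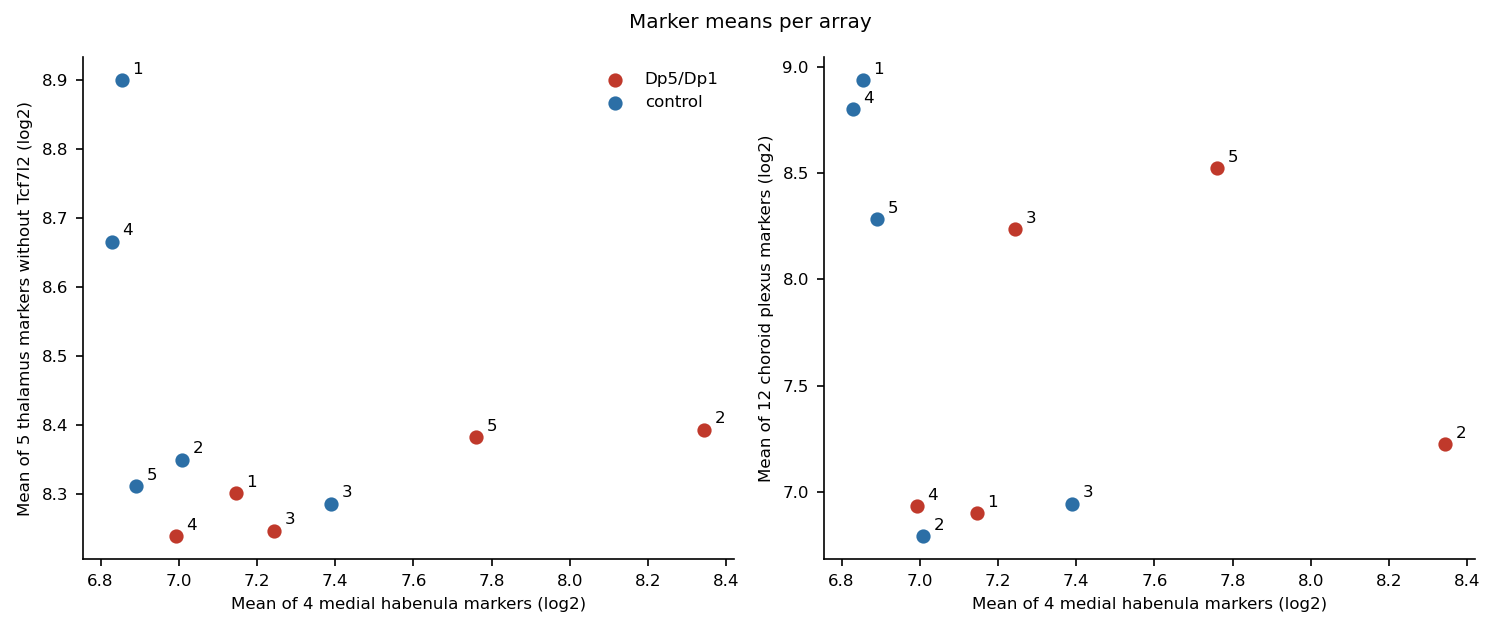
Mean log2 level of the 4 medial habenula markers (x axis) against that of the 5 thalamus markers without Tcf7l2 (left) and of 12 choroid plexus markers (right), with a point for each Dp5/Dp1 and control array labelled by replicate number. Tcf7l2 was left out after its values were seen. Dp5/Dp1 2 and 5 are the highest on the x axis, and control 1 and 4 the highest for thalamus markers, at 8.90 and 8.67. Dp5/Dp1 2 and 5 come next for thalamus markers, at 8.39 and 8.38.

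Of 14 other medial habenula genes, 0 were called by limma, 11 had a higher mean in Dp5/Dp1 and 3 a lower one, and the median difference was 0.11. Among the dimmest 40% of genes were 7 of the 14. The genes with the lowest p were Tac1, the substance P precursor, at 0.32 ± 0.12 (SE, unadjusted p = 0.0221 in limma), then Nppa, Chrnb4 and Chrnb3. The nicotinic receptor subunit gene Chrna3 was among the dimmest 40%. It read 6.06, 9.03, 6.31, 6.04 and 7.87 in Dp5/Dp1 arrays 1 to 5, against 6.18, 5.97, 7.17, 6.19 and 5.98 in control arrays 1 to 5. Its highest arrays were Dp5/Dp1 2 and 5, as for the 4 markers, then control 3, as for Tac2, and its difference of 0.76 ± 0.53 (SE) had an adjusted p of 0.862 in limma. In all, 9 of the 14 genes had r of at least 0.7 with the marker mean, against 1.18% of all genes outside the markers. When Dp5/Dp1 arrays 2 and 5 were left out, 7 of 14 did, against 6.86%. This list too was chosen with earlier results of these data known, so the shares are no test.

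Likeness was ranked among 125 genes outside the markers with a range of at least 1 log2 unit. Predicted gene models, Riken and similar clones and olfactory receptors were passed over. Those most like the medial habenula mean among the 125 were Chrna3 (r = 0.98) and Chrnb4 (0.97), both subunits of the habenular nicotinic receptor. Next came Chrnb3 (0.92), the synaptotagmin gene Syt9 (0.90) and the calretinin gene Calb2 (0.78). Fam216b (0.76), Pld5 (0.61) and Stoml3 (0.59) followed. Without Dp5/Dp1 arrays 2 and 5, r was 0.87 for Chrna3 and 0.86 for Chrnb4, but 0.39 for Chrnb3 and -0.02 for Calb2. Calretinin is also made by hippocampal interneurons, and Calb2 read 9.06, 10.21, 9.00, 9.36 and 10.14 in Dp5/Dp1 arrays 1 to 5, against 9.79, 9.57, 9.84, 9.89 and 9.38 in control arrays 1 to 5.

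Of 15 other thalamus genes, 0 were called by limma, 3 had a higher mean in Dp5/Dp1 and 12 a lower one, and the median difference was -0.11. Among the dimmest 40% of genes were 5 of the 15. At an unadjusted p under 0.05 in limma, 3 were lower: the netrin-G1 gene Ntng1 (-0.20 ± 0.07, SE), the homeobox gene Shox2 (-0.21 ± 0.08) and the RNA-editing enzyme gene Adarb1 (-0.10 ± 0.04). Shox2 was among the dimmest 40%. It read 5.34, 5.45, 5.33, 5.30 and 5.43 in Dp5/Dp1 arrays 1 to 5, against 5.87, 5.50, 5.43, 5.68 and 5.45 in control arrays 1 to 5. Its highest arrays were again control 1 and 4. Its r was 0.99 with the mean of the 5 thalamus markers without Tcf7l2 and 0.83 with that of all 6. Plekhg1, chosen after its values were seen, had r = 0.96 with the mean without Tcf7l2 and 0.86 with that of all 6. It read 8.69 to 8.86 in Dp5/Dp1, against 9.52 and 9.17 in control arrays 1 and 4 and 8.72 to 8.84 in the other controls. With the mean without Tcf7l2, Vamp1 had the lowest r, -0.58, and Rorb had -0.25. Vamp1 was higher in Dp5/Dp1, by 0.17 ± 0.09 (SE). Lhx9 and Foxp2 had r of 0.30 and 0.51 with that thalamus mean, beside 0.73 and 0.71 with the medial habenula mean. In all, 7 of the 15 genes had r of at least 0.7 with the thalamus mean without Tcf7l2, against 3.13% of all genes outside the markers. With the mean that included Tcf7l2, 5 of 15 did, against 3.58%. Of 12 choroid plexus genes, 1 had such an r with the mean without Tcf7l2 and 4 with the mean that included it. Median r with the mean without Tcf7l2 was 0.67 for both lists. Both lists were chosen with earlier results of these data known, so these shares are no test.

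Among the same 125 genes, those most like the mean of all 6 thalamus markers were Ramp3 (r = 0.90), Gpx8 (0.85) and Inmt (0.83). Prr32, Ifit3, Slc13a4, Igfbp2 and Cox8b followed, at 0.82 to 0.79. Ramp3 is a receptor activity-modifying protein gene expressed in thalamus. Ramp3 read 6.95, 6.89, 7.03, 6.83 and 7.26 in Dp5/Dp1 arrays 1 to 5, against 7.91, 6.89, 6.98, 7.34 and 6.89 in control arrays 1 to 5. With Tcf7l2 left out of the mean, Vipr2, a receptor for vasoactive intestinal peptide, came highest at r = 0.92, followed by Ramp3 at 0.92, and Cldn2, from the choroid plexus list, was among the 8 at 0.79. None of the 125 genes came as close to Tcf7l2 alone: the highest was Txnip at 0.60.

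In the gene families of the markers, none of the members was called by limma. Groups did not overlap for 1 of 3 vesicular glutamate transporter genes, 1 of 3 synaptopodin genes and 1 of 5 BK channel genes. Over all genes, 1.08% had groups without overlap. In the vesicular glutamate transporter family, Slc17a8, which encodes VGLUT3 of scattered interneurons and raphe axons, read 7.42, 7.15, 7.23, 7.47 and 7.54 in Dp5/Dp1 arrays 1 to 5, against 6.87, 7.07, 7.13, 6.98 and 6.87 in control arrays 1 to 5. Its groups did not overlap, and the difference of 0.38 ± 0.08 (SE) had an adjusted p of 0.163 in limma. Slc17a7, which encodes VGLUT1, differed by -0.01 ± 0.04 (SE). Of 8 protein kinase C genes measured, Prkcd had the lowest p, and Prkcz, the next, differed by -0.06 ± 0.03 (SE).

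Among the synaptopodin genes, Synpo2l read 6.84 to 6.92 in Dp5/Dp1 and 6.96 to 7.08 in control without overlap, at -0.12 ± 0.03 (SE, adjusted p of 0.483 in limma), and Synpo differed by 0.0030 ± 0.05 (SE). The BK channel gamma subunit gene Lrrc38, among the dimmest 40%, read 6.12 to 6.21 in Dp5/Dp1 and 5.98 to 6.09 in control without overlap, at 0.12 ± 0.03 (SE, adjusted p of 0.526 in limma), while the pore-forming Kcnma1 differed by -0.04 ± 0.07 (SE). Control arrays 1 and 4, the highest for Synpo2, were not the highest controls for Synpo2l. In the tachykinin system Tac1 and Tac2 were higher at an unadjusted p under 0.05 in limma, and the receptor genes Tacr1 and Tacr2 differed by 0.11 ± 0.11 (SE) and 0.03 ± 0.04 (SE). Of 11 TCF/LEF factors and Wnt targets measured, Znrf3, a membrane ubiquitin ligase that restrains Wnt signalling, had the lowest p at -0.09 ± 0.04 (SE). Rorb, the other ROR receptor gene measured, differed by -0.10 ± 0.05 (SE, unadjusted p = 0.0704 in limma).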

How the data were processed

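Total RNA of whole hippocampus was hybridised to Affymetrix Mouse Gene 1.0 ST arrays. The deposited table holds log2 values that the authors made with RMA (background correction, quantile normalization and probe-set summary), with mm10 and limma also listed in the submitters' notes. Of 35556 probe sets, 21789 had 1 gene symbol, 1621 several and 12146 none in the platform annotation. The brightest probe set by mean was kept per gene, leaving 19938 genes. Array medians were 6.73 to 6.80 and correlations between arrays 0.99615 to 0.99858 across genes. The number of arrays limits the precision.

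Groups were compared with limma 3.58.1 (R 4.3.3) by a moderated two-sided test without covariates, adjusted by Benjamini-Hochberg over all genes (threshold 0.05). The authors' FCROS rank method was rewritten from its description (25 array pairs, trim 0.25, f-value under 0.025 or over 0.975). The exact permutation test ran over 252 assignments (smallest p 0.00794). Scripts were tested on simulated data. The markers and gene lists were chosen with earlier results of these data known. Named genes were all 10 markers, up to 4 per other list with the lowest p, and the 8 most like each marker mean. Ttr, Kcnma1, Cspg4, Itpr2, Plekhg1, Vamp1, Lhx9 and Foxp2 were added after their values were seen. Promoter sequences are from RefSeq, where 9 of 10 markers matched. Alternatives covered filtering, normalization, probe sets, variance model, array weights, replicate block, covariates and arrays left out. Each p-value weighs a group difference against the spread between these arrays, 1 per mouse. Spread between mice and between dissections cannot be told apart.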

Additional observations from a re-analysis of the deposited data

Results flagged for a closer look

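Tac2 in control array 3 was far from the other controls, at 9.13 against 7.54 to 7.98, with a gap to the nearest of 0.721 of the group's range, above the 0.71 that Dixon's test allows for 5 arrays. It was the only such value among 20 groups examined (10 markers in 2 groups), and chance alone gives about 1 in 20.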

How the results depend on the processing

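The number of genes called over the whole table was 41 by limma and 1008 by FCROS, where the cut-offs largely set the number. The limma number was 26 with the replicate block and 21 without Dp5/Dp1 arrays 2 and 5. With the medial habenula mean as a covariate it was 20, and with the thalamus mean 23. It was 20 without control arrays 1 and 4 and 25 without Dp5/Dp1 arrays 2 and 5 and control array 3, both chosen after the data were seen. Leaving out 1 array at a time gave 29 to 39. The number of markers called was 4 by FCROS and 0 in each limma setting where markers were read, leaving out 1 array at a time included (0 to 0). Only 8 markers remained without the dimmest 40% of genes, and markers were not read with a marker mean as a covariate. The causes were not tested.

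Same-numbered arrays of the groups deviated together with r of -0.27, 0.29, -0.01, -0.35 and -0.06 for numbers 1 to 5, and only number 2 was best matched by its own number, so the numbers were not taken to pair the mice. The lowest adjusted p of any marker over the limma settings was 0.244.

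Of 208 marker values under other settings, 197 kept their direction and side of the threshold, 4 passed by FCROS alone, and 7 reversed. The Slc17a6 difference was -0.0076 with array weights, -0.0712 without Dp5/Dp1 array 2, -0.0378 without control array 3, -0.0409 without Dp5/Dp1 arrays 2 and 5, and -0.0879 with control array 3 out too. The Tcf7l2 difference was 0.0625 without Dp5/Dp1 array 4, and that of Lef1 0.0054 without control arrays 1 and 4. Leaving out 1 array at a time, Tac2 differed by 0.62 to 1.21, Gpr151 by 0.26 to 0.69, Lrrc55 by 0.19 to 0.48 and Pou4f1 by 0.10 to 0.22, lowest without Dp5/Dp1 array 2 for all 4. Synpo2 differed by -0.46 to -0.22, Prkcd by -0.47 to -0.19 and Rora by -0.23 to -0.08, nearest 0 without control array 1. Tcf7l2 ran from -0.4665 to 0.0625, Lef1 from -0.1193 to -0.0138 and Slc17a6 from -0.0712 to 0.052. Of the 8 genes most like the medial habenula mean, 6 were shared with a ranking by Spearman's rho and 1 with that without Dp5/Dp1 arrays 2 and 5. For the thalamus mean, 4 and 7 were shared.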
